A study of Mus musculus with 12 samples.

Results

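The cytochrome P450 genes were compared between mouse lung tumours with Dnmt3a knocked out (KO) and with Dnmt3a intact (wild type, WT), according to the labels. Dnmt3a is a methyltransferase that adds methyl groups to cytosines of DNA not methylated before. The members were all probes whose gene name consists of Cyp, a number, a letter and a number, apart from those of Cyp2f2. This took 101 of 41174 probes and 69 of 22315 named genes, and it used no measured value. All mice were of mixed C57/129 background and carried a K-ras LSL-G12D allele, a mutant K-ras that stays silent until Cre recombinase removes a stop cassette. Cre was delivered by adenovirus through the trachea or the nose at 6 to 12 weeks of age. The KO mice also carried conditional Dnmt3a alleles and were homozygous for the deletion in the lung cells that recombined, while the WT mice had received the same virus and carried the same mutant K-ras. Cells of a tumour that the virus did not reach, such as vessels and immune cells of the host, need not have recombined in either group.

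Each of 12 two-colour Agilent arrays held RNA of a KO tumour in one dye and RNA of a WT tumour in the other, and KO RNA carried Cy5 on 6 of them and Cy3 on 6. Arrays whose labels give the same ages and sexes of both mice are called a pair here. Pair A (4 arrays, slide 1) set a male KO mouse of age 47.7 against a male WT mouse of age 42.6, the unit of age being unstated. Pair B (4 arrays, slide 2) set a KO male of age 27 against a WT male of age 41.3, and pair C (2 arrays, slide 3) a KO male of age 27 against a WT female of age 47.6. Pair D (2 arrays, slide 3) set a KO male of age 29.1 against a WT male of age 37.3. The KO RNA of pair C was always in Cy5 and that of pair D always in Cy3, so within these pairs dye and genotype cannot be told apart. The series calls all 12 arrays biological replicates, but no label states whether arrays within 1 pair used different animals, and the p-values therefore measure a spread that may be partly technical. The age 27 recurs in the KO mice of pairs B and C.

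Dnmt3a itself was lower in the KO RNA on 12 of 12 arrays, but by little. Its log2 ratio ran from -0.41 to -0.055 with a median of -0.17, and the mean was -0.21 ± 0.05 (SE, n = 12), or 1.16-fold lower, with an adjusted p of 0.0213 in limma. The labels do not say which part of the gene is deleted, so it is unknown whether the probe lies in it, and the value is a weak check of the labels. The call was lost in 11 of 31 other settings, among them each left-out pair (adjusted p = 0.0647 without A, 0.0765 without B, 0.0565 without C and 0.0694 without D, in limma), local backgrounds as deposited (0.0802), median centring (0.127) and each pair's mean as 1 value (0.179). The ratio was below 0 in all 31.

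P450 enzymes are haem-containing oxygenases that sit in the endoplasmic reticulum or the mitochondria and take electrons from partner proteins to insert oxygen into their substrates. Families with low numbers mostly clear foreign compounds and fatty acids, while others make or break down steroids, bile acids, vitamin A and vitamin D. In the mouse lung, club cells of the airways, alveolar type 2 cells and endothelial cells are known sites of P450 enzymes, and Cyp1a1 is the textbook target of the aryl hydrocarbon receptor, which with its partner Arnt binds DNA at the core letters GCGTG.

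The promoter windows of Cyp1a1 and Cyp26b1, which fell in the KO tumours, are shown first. With them are those of the Cyp1 relatives Cyp1a2 and Cyp1b1, which did not pass the test. No window was available for Cyp7b1, which also fell. The windows shown are RefSeq sequences of build GRCm38.p6, 5' to 3' on the gene's own strand. They run from 250 bases before to 50 bases after the gene's start. Capitals mark GCGTG on either strand (CACGC on the other) and TATAAA, the TATA box letters, on the gene's strand. Cyp1a1 is at chr9:57697363-57697662 on the plus strand, Cyp1a2 at chr9:57683606-57683905 on the minus strand, Cyp1b1 at chr17:79715012-79715311 on the minus strand and Cyp26b1 at chr6:84593761-84594060 on the minus strand.
Cyp1a1: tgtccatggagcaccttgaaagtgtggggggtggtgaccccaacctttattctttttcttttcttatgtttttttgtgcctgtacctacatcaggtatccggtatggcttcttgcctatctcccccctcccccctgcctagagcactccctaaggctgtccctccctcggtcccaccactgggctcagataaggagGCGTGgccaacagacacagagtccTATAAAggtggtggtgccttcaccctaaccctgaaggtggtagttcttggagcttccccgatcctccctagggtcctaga
Cyp1a2: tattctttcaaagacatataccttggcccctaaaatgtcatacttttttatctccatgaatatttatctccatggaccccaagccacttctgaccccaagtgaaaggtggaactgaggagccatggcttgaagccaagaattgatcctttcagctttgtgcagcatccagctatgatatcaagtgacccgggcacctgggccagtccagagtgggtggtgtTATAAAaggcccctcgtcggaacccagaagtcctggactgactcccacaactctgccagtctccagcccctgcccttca
Cyp1b1: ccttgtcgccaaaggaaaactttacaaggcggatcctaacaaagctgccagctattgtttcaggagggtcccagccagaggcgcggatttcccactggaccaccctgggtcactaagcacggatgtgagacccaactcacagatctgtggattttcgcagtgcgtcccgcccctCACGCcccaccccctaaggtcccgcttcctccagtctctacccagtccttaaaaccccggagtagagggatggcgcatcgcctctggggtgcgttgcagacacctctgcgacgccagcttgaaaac
Cyp26b1: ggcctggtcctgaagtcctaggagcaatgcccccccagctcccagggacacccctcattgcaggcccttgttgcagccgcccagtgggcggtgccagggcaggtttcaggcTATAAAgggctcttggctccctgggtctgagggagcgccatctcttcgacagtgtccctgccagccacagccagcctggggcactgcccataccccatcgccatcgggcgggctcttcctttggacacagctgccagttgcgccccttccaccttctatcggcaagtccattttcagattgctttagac
The Cyp1a1 window holds 1 GCGTG, 1 TATAAA and 4 CpG dinucleotides, the pairs of letters that Dnmt3a can methylate. The Cyp1a2 window holds a TATAAA and 3 CpG but no GCGTG, and the Cyp1b1 window holds 1 GCGTG and 16 CpG but no TATAAA. The Cyp26b1 window holds a TATAAA and 9 CpG but no GCGTG. Over 61 windows of 52 P450 genes, 34.4% held TATAAA on the gene's strand, against 8.32% of 32851 windows of all genes, and 19.7% held GCGTG on either strand, against 32.4%. P450 windows also held fewer CpG, with a median of 3 against 7, and 13.1% of them against 43.5% of all windows held at least 10. AGGTCA, the letters that many nuclear receptors bind, searched on both strands, was in 24.6% of P450 windows and in 16.3% of all windows. These are matches of letters and no sign of binding, and GCGTG itself contains a CpG. No DNA methylation was measured in the data used here.

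Most P450 probes gave a usable signal. A probe was used where its spot was well above background, by the scanner software's own flag, in the KO or the WT RNA on at least 6 of 12 arrays. This kept 91 of 101 P450 probes, against 86.4% of all probes, and 65 of 69 P450 genes. Both RNAs were well above background on all 12 arrays for 47 P450 probes, against 54% of all probes. The probes that never passed that flag were 1 probe of Cyp2c38 and 1 of Cyp2s1. Cyp2c38, Cyp2e1, Cyp2j5 and Cyp2a12 had no usable probe and were not tested. Cyp2e1, an enzyme of ethanol and solvent oxidation that is abundant in liver, was well above background for KO RNA on 2 arrays and for WT RNA on 1. Of the 65 genes, 62 passed through both RNAs and 3 through KO RNA alone.

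**Figure D1:**
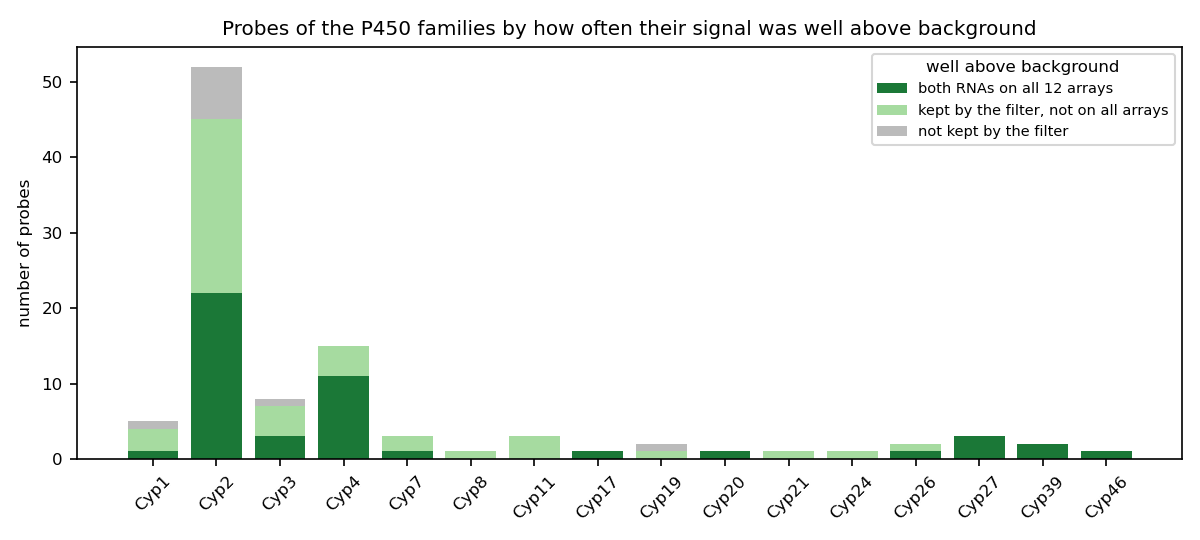
Number of probes (y axis) in each P450 family (x axis), split by how often the spot was well above background. Family Cyp2 holds 52 of the 101 probes, of which 45 were kept, and all 15 probes of family Cyp4 were kept.

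Dimness limits what a ratio can show, because the background correction adds an offset of 50 to every signal and so draws ratios of dim spots towards 0. The mean signal of 10 of the 65 P450 genes (15.4%) was under 100 on that scale, as it was for 2069 of all 20513 genes. Their ratios stayed within 0.25 of 0 on the log2 scale, with a median size of 0.02, against 0.09 for the other 55 P450 genes. A ratio near 0 for such a gene is therefore no sign that KO and WT levels were equal. No P450 spot of any array was saturated. Fewer spots were well above background on slide 3 (59.0% to 72.2% of all probes) than on slides 1 and 2 (81.6% to 89.6%), so pairs C and D measured dim genes less well.

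Of the 65 P450 genes tested, 3 fell in the KO tumours and 0 rose, at an adjusted p under 0.05 in limma with Benjamini-Hochberg adjustment over 20513 genes. Across all genes 3.77% fell and 3.37% rose, so the number of P450 genes that fell was near the background. At an unadjusted p under 0.05, 6 P450 genes were lower and 1 was higher, against 11.4% and 11% of all genes. The median P450 log2 ratio of KO over WT was -0.04, against -0.006 over all genes. Of the P450 ratios 44 were below 0 and 21 above, and over all genes 10777 were below 0 and 9736 above. Many P450 ratios lay close to 0 and some relatives moved together, as given below, so these signs are not separate results. The 3 that fell were Cyp1a1, Cyp26b1 and Cyp7b1, from 3 families. Each was lower in the KO RNA on 12 of 12 arrays. Counted by probe, 3 of 91 fell and 0 rose, against 2.88% and 2.83% of 35562 probes.

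**Figure D2:**
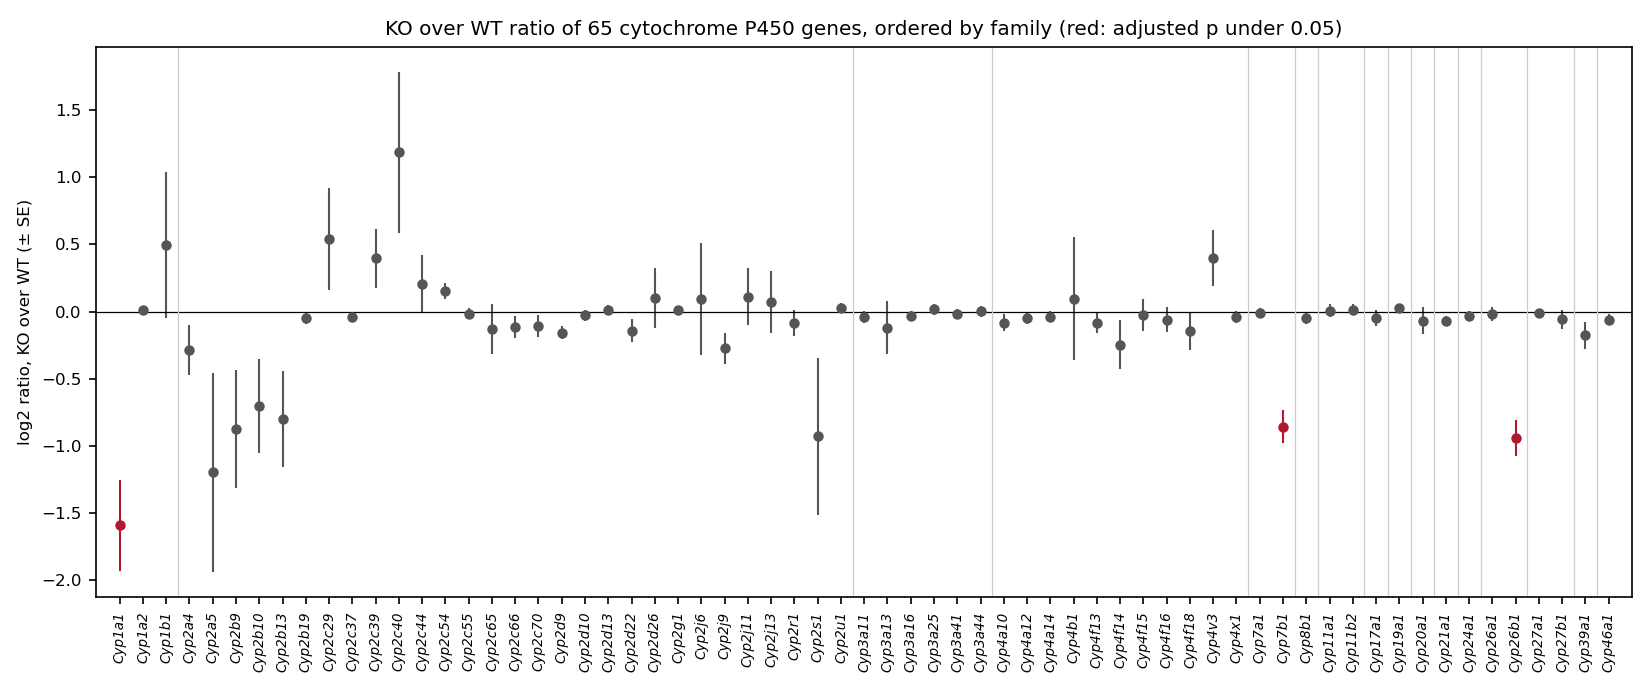
Log2 ratio of KO over WT (y axis, mean over 12 arrays with its standard error) for each of the 65 P450 genes tested (x axis, ordered by family, families parted by grey lines). Cyp1a1, Cyp7b1 and Cyp26b1, in red, fell, and the widest error bars belong to Cyp2 genes, Cyp1b1 and Cyp4b1.

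Cyp1a1 oxidises polycyclic aromatic hydrocarbons, such as those in smoke, and is the member by which the family is best known. Its probe, a 60-base oligonucleotide, lies at chr9:57731394-57731453 on the plus strand of build mm7, per the file headers. The normalized log2 signal of the WT RNA ran from 6.65 to 10.56 over the 12 arrays, with a median of 7.57, and that of the KO RNA ran from 5.89 to 6.92, with a median of 6.62. On each array the WT signal was the higher one. The WT signal was well above background on 12 of 12 arrays and the KO signal on 7 of 12. The SD over the arrays was 1.32 for the WT signal and 0.27 for the KO signal. The KO signal lay at the floor of the measurement, where the offset of 50 compresses it, so its small SD does not show that KO levels were steady.

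The Cyp1a1 log2 ratio was -0.75, -0.08, -0.97 and -0.83 on the 4 arrays of pair A and -3.59, -3.79, -1.95 and -2.84 on the 4 of pair B. It was -0.85 and -0.62 in pair C and -1.95 and -1.15 in pair D. The 3 largest falls were in pair B, whose arrays also held the 4 highest WT signals. Over all arrays the log2 ratio was -1.59 ± 0.34 (SE, n = 12), a signal 3.01-fold lower in the KO RNA, with an adjusted p of 0.0204 in limma. On replicates 1, 9, 10, 11 and 12 the KO spot was not well above background, so 5 of the 12 ratios, and with them the overall fold, are set against a floor. The call was lost without pair D (-1.65, adjusted p = 0.0541 in limma), with the local backgrounds as the scanner gave them (-1.38, adjusted p = 0.0606) and with each pair's mean as 1 value (-1.50, adjusted p = 0.2). The size moved to -0.90 without pair B (adjusted p = 0.0383 in limma) and to -3.07 with the scanner software's own processed signals (adjusted p = 0.00247). The mean of pair A was -0.66, that of B -3.04, that of C -0.73 and that of D -1.55. The F test between pairs gave an adjusted p of 0.139 over all genes in limma (unadjusted p = 0.00148), so a difference between pairs did not pass. In pairs C and D the KO spot was above background on no array, which leaves only a bound: Cyp1a1 was at least 1.6-fold lower in pair C and at least 2.23-fold lower in pair D. Each bound sets the mean WT signal against the higher of the KO signal and the dimmest signal well above background. These tumours are bulk tissue, in which fewer cells of a type and less RNA per cell cannot be told apart.

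Cyp26b1 breaks down retinoic acid, the active form of vitamin A, and its probe lies at chr6:84601274-84601333 on the minus strand of build mm7. Its WT signal ran from 8.69 to 10.64 (median 9.43) and its KO signal from 7.96 to 9.60 (median 8.58), both well above background on all 12 arrays. The log2 ratio ran from -2.04 to -0.36 with a median of -0.76, so no array came near equal signals. The mean was -0.94 ± 0.14 (SE, n = 12), or 1.92-fold lower in the KO RNA, with an adjusted p of 0.00292 in limma. Pair means were -0.60 in A, -1.27 in B, -0.56 in C and -1.33 in D. They took the order of the Cyp1a1 means in that B and D lay below A and C. Over the 12 arrays the ratios of Cyp1a1 and Cyp26b1 had a Pearson r of 0.77, a description only, since 4 pairs of RNA sources and 3 slides underlie the arrays. Cyp26a1, which has the same reaction, had a log2 ratio of -0.02 ± 0.05 (SE, adjusted p = 0.881 in limma) from signals between 6.85 and 7.60 in the KO RNA. Its mean log2 signal was low, at 7.15, and its KO spot was well above background on 10 of 12 arrays and on 0 of pair D. The ratio near 0 therefore does not show equal levels.

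Cyp7b1 hydroxylates oxysterols and some steroids on the alternative route to bile acids, and its probe lies at chr3:17798088-17798147 on the minus strand of build mm7. Its WT signal ran from 8.37 to 9.35 (median 8.73) and its KO signal from 7.24 to 8.73 (median 7.84). The KO signal was below the WT signal on each array, by 0.18 on replicate 2 of pair A and by 1.35 on replicate 1 of the same pair. The log2 ratio was -0.86 ± 0.12 (SE, n = 12), or 1.81-fold lower in the KO RNA, with an adjusted p of 0.00285 in limma. Pair means were -0.66 in A, -0.76 in B, -1.06 in C and -1.18 in D. Its ratio followed neither of the other genes closely, with a Pearson r of -0.05 to Cyp1a1 and 0.21 to Cyp26b1 over the 12 arrays. Cyp1a1, Cyp26b1 and Cyp7b1 each had 1 usable probe, so no second probe bears on these falls. With each pair's mean as 1 value, Cyp26b1 (-0.94, adjusted p = 0.104 in limma) and Cyp7b1 (-0.915, adjusted p = 0.0663) were no longer called, in a fit of 4 values that called 48 of all genes.

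**Figure D3:**
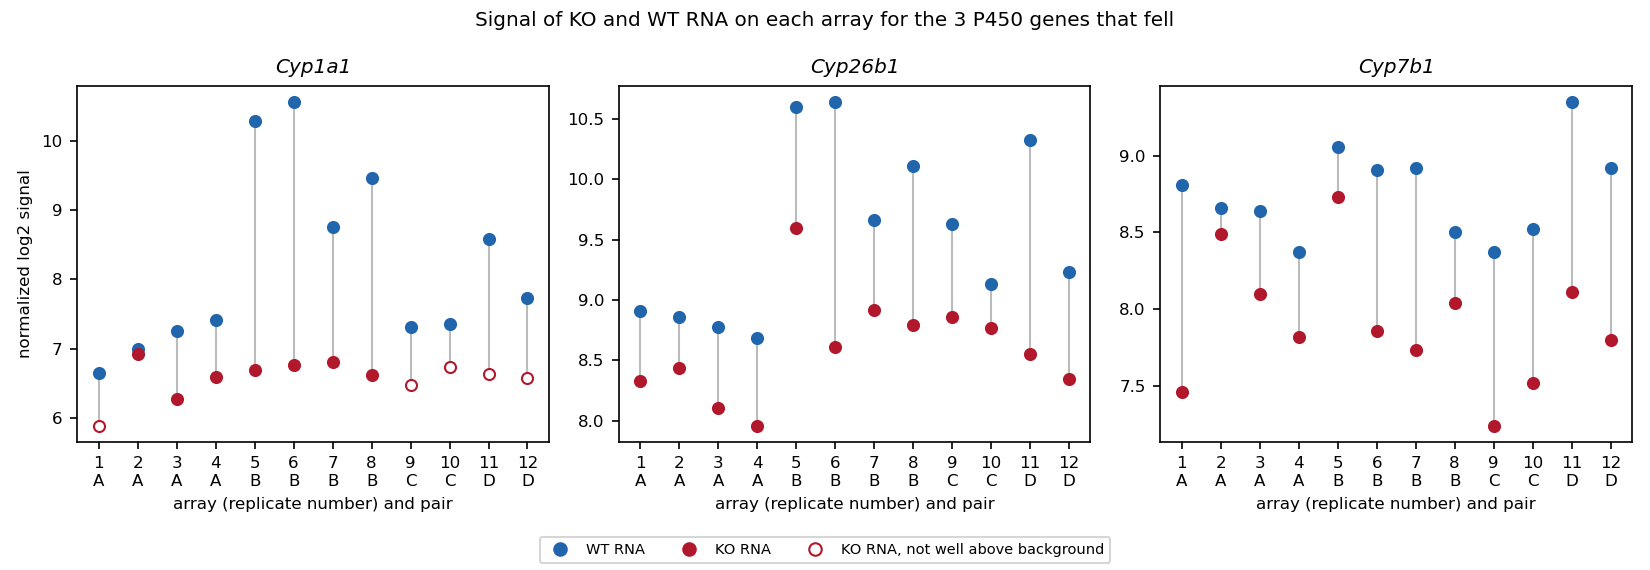
Normalized log2 signal (y axis) of KO RNA in red and WT RNA in blue on each of the 12 arrays (x axis, replicate number and pair), joined by a line per array. Open red circles are KO spots not well above background; in Cyp1a1 the KO signal stays between 5.89 and 6.92 while the WT signal reaches 10.56 in pair B.

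Markers of vessel cells were lower in the KO RNA as well. All 8 endothelial markers of a list that includes Pecam1, Cdh5 and Cldn5 fell in the KO RNA, against 3.77% of all genes. Their median log2 ratio was -0.84, and the summed signal of the list ran from 9910 to 14800 in KO and from 17600 to 31100 in WT. All 8 were well above background in both RNAs on all 12 arrays. The pericyte genes Pdgfrb (-0.88, adjusted p = 0.00118 in limma) and Rgs5 (-1.65, adjusted p = 0.0118 in limma) also fell. They were 2 of 7 genes of the fibroblast and pericyte list, against 3.77% of all genes. The summed signal of that list ran from 23500 to 90300 in KO and from 21800 to 91300 in WT. Over the arrays, Cyp1a1 had a Pearson r of -0.06 to Pecam1, -0.25 to Cldn5 and 0.02 to Erg. For Cyp26b1 these values were -0.05, -0.16 and 0.14, and for Cyp7b1 they were 0.29, -0.14 and -0.42. The part of the cell makeup in the falls of Cyp1a1, Cyp26b1 and Cyp7b1 was not tested.

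The other xenobiotic-metabolising members did not pass the test. Cyp1a2, which oxidises caffeine and aromatic amines, was near the floor, with KO signals of 6.34 to 6.64 and WT signals of 6.31 to 6.61, and a log2 ratio of 0.01 ± 0.03 (SE, adjusted p = 0.892 in limma). Cyp1b1, an extrahepatic relative that oxidises oestradiol and aromatic hydrocarbons, was well above background in both RNAs on 12 of 12 arrays. Its log2 ratio ran from -2.07 to 3.38 with a median of 0.68 and a mean of 0.50 ± 0.54 (SE, adjusted p = 0.659 in limma). It was higher on 8 arrays and lower on 4, so the 2 RNAs were in no fixed order. A second Cyp1b1 probe had a mean of 0.03 with a standard error of 0.09. It was dim, well above background on 8 of 12 arrays for each RNA and on 0 of the 4 arrays of pairs C and D, so its narrower scatter bears little on the probe used.

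Of 33 Cyp2 genes, 29 were tested and 0 passed. At an unadjusted p under 0.05 in limma 1 was higher and 3 were lower, against 11% and 11.4% of all genes, so these counts were not above the background. The smallest p belonged to Cyp2d9, a male-enriched steroid hydroxylase of mouse liver. It was lower on 11 of 12 arrays, with ratios from -0.42 to 0.16, a median of -0.16 and a mean of -0.16 ± 0.05 (SE, adjusted p = 0.085 in limma). Its pair means were 0.00 in A, -0.14 in B, -0.31 in C and -0.30 in D (F test between pairs in limma, adjusted p = 0.342). A second Cyp2d9 probe, which overlaps the one used by 27 bases, was lower on 7 of 12 arrays, with ratios from -0.98 to 0.55. That probe had a mean of -0.19 ± 0.13 (SE, adjusted p = 0.428 over all probes in limma). The 4 Cyp2b genes all had negative means, of -0.87 for Cyp2b9, -0.80 for Cyp2b13, -0.70 for Cyp2b10 and -0.05 for Cyp2b19, with adjusted p-values from 0.214 to 0.609 in limma. Of 10 Cyp2c genes tested, 5 means were above 0 and 5 below. The largest mean was that of Cyp2c40, an arachidonic acid hydroxylase, at 1.19 ± 0.60 (SE, adjusted p = 0.271 in limma), higher on 9 of 12 arrays. Some paralogs within a Cyp2 subfamily are close in sequence, so signal on one probe may include RNA of a neighbour. This was not tested.

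The Cyp3a genes, whose products clear many drugs and steroids, gave ratios between -0.12 and 0.02 for all 6 genes tested. In limma 0 were called and 0 had an unadjusted p under 0.05, against 11% of all genes higher and 11.4% lower at that p. Cyp3a16 had the smallest p, with a mean of -0.03 ± 0.03 (SE, adjusted p = 0.641 in limma). Cyp3a13 had KO signals of 9.46 to 11.21 and a mean ratio of -0.12, but its pair means ran apart. They were 0.30 in A and 0.24 in B against -1.11 in C and -0.49 in D, with 6 of the 8 arrays of A and B above 0 and all 4 arrays of C and D below 0. The F test between pairs gave an unadjusted p of 0.00315 and an adjusted p of 0.175 in limma, so the difference did not pass.

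All 11 Cyp4 genes, most of which hydroxylate the far end of fatty acids and eicosanoids, were tested and 0 passed in limma. At an unadjusted p under 0.05 there were 0 as well, against 11% of all genes higher and 11.4% lower. Cyp4v3, a fatty acid hydroxylase whose human counterpart is mutated in a corneal and retinal dystrophy, had ratios from -0.52 to 2.11 with a median of 0.26. Its mean was 0.40 ± 0.21 (SE, adjusted p = 0.288 in limma), higher on 9 of 12 arrays. Cyp4f18, which acts on leukotriene B4 in neutrophils, had pair means of -0.36 in A, 0.35 in B, -0.79 in C and 0.02 in D (F test between pairs in limma, adjusted p = 0.353). Cyp4f14, another leukotriene hydroxylase, had the smallest p between pairs of all P450 genes, 0.000786 (adjusted p = 0.111 in limma). That value rested on 1 array, replicate 10 of pair C, where the ratio was -1.84, since replicate 9 gave no value and the other 10 ratios lay between -0.62 and 0.32.

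The steroid-making members had ratios near 0, but most of them gave low signals, although only Cyp11b2 had a mean signal under the limit of 100 used above. Mean log2 signals were 6.82 for Cyp11a1, 6.44 for Cyp11b2, 7.07 for Cyp19a1 and 7.16 for Cyp21a1, against 9.44 for Cyp17a1. The offset draws ratios of low signals towards 0, and the more so the lower the signal, so these ratios do not show equal levels. Cyp11a1, which starts steroid synthesis by cutting the side chain of cholesterol, had a mean of 0.01, and Cyp11b2, aldosterone synthase, 0.01 ± 0.04 (SE, adjusted p = 0.908 in limma) from signals of 6.26 to 6.72. Cyp17a1, which makes androgen precursors, had WT signals of 9.10 to 9.87 and a mean of -0.05 ± 0.06 (SE, adjusted p = 0.694 in limma), from the 8 arrays of pairs A and B only, because its spots were marked as outliers on the other 4. Cyp19a1, the aromatase that makes oestrogen, had 0.03 ± 0.03 (adjusted p = 0.629 in limma), and Cyp21a1, needed for cortisol-type steroids, -0.07 ± 0.04 (adjusted p = 0.325 in limma). None of these passed at an unadjusted p under 0.05 either.

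The sterol and vitamin members other than Cyp7b1 and Cyp26b1 did not pass. Cyp7a1, the first enzyme of the classic route to bile acids, had a mean of -0.01 ± 0.04 (SE, adjusted p = 0.918 in limma). Cyp39a1, an oxysterol hydroxylase, had signals of 9.77 to 11.06 in KO and 10.09 to 11.41 in WT and a mean of -0.18 ± 0.10 (SE, adjusted p = 0.341 in limma), with 7 arrays lower and 5 higher. Cyp46a1, which removes cholesterol from the brain, had -0.06 ± 0.04 (adjusted p = 0.412 in limma), and Cyp8b1, which sets the amount of cholic acid, -0.05 ± 0.04 (adjusted p = 0.483 in limma). Cyp27b1 activates vitamin D and had -0.06 ± 0.07 (adjusted p = 0.69 in limma), with an unadjusted p of 0.0407 between pairs (adjusted p = 0.383). Cyp24a1, which inactivates vitamin D, had -0.03 ± 0.04 (adjusted p = 0.685 in limma). Cyp8b1 and Cyp24a1 were near the floor, with mean log2 signals of 6.32 and 6.59. Cyp20a1, a member without a settled substrate, had -0.07 ± 0.10 (adjusted p = 0.765 in limma).

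Between the 4 pairs, 0 of the P450 genes differed at an adjusted p under 0.05 in limma's F test, against 0.341% of all genes. At an unadjusted p under 0.05, 6 of them differed, against 12.2% of all genes. These were Cyp4f14, Cyp1a1, Cyp3a13, Cyp2d9, Cyp4f18 and Cyp27b1. Without replicate 12 of pair D, Cyp4f14 passed this test, and leaving out any other single array left 0 past it. With 2 arrays in each of pairs C and D this test has few values to work from.

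The ratios of some P450 genes scattered far between arrays. The ratio had an SD of at least 1 over the arrays in 11 of 65 P450 genes, or 16.9%, against 2.85% of all genes. The median SD was 0.28 for P450 genes and 0.29 for all genes, so the wide scatter belonged to a subset. That threshold was chosen after the values were seen, and no test was made of it. The 11 genes were Cyp2a5, Cyp2s1, Cyp2c40, Cyp1b1, Cyp4b1, Cyp2b9, Cyp2j6, Cyp2c29, Cyp1a1, Cyp2b13 and Cyp2b10. Apart from Cyp1a1, none passed the test of KO against WT, and their scatter lay largely within pairs: the SD within pairs was 2.70 for Cyp2a5 against 2.37 over all arrays, while for Cyp1a1 it was 0.61 against 1.22.

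**Figure D4:**
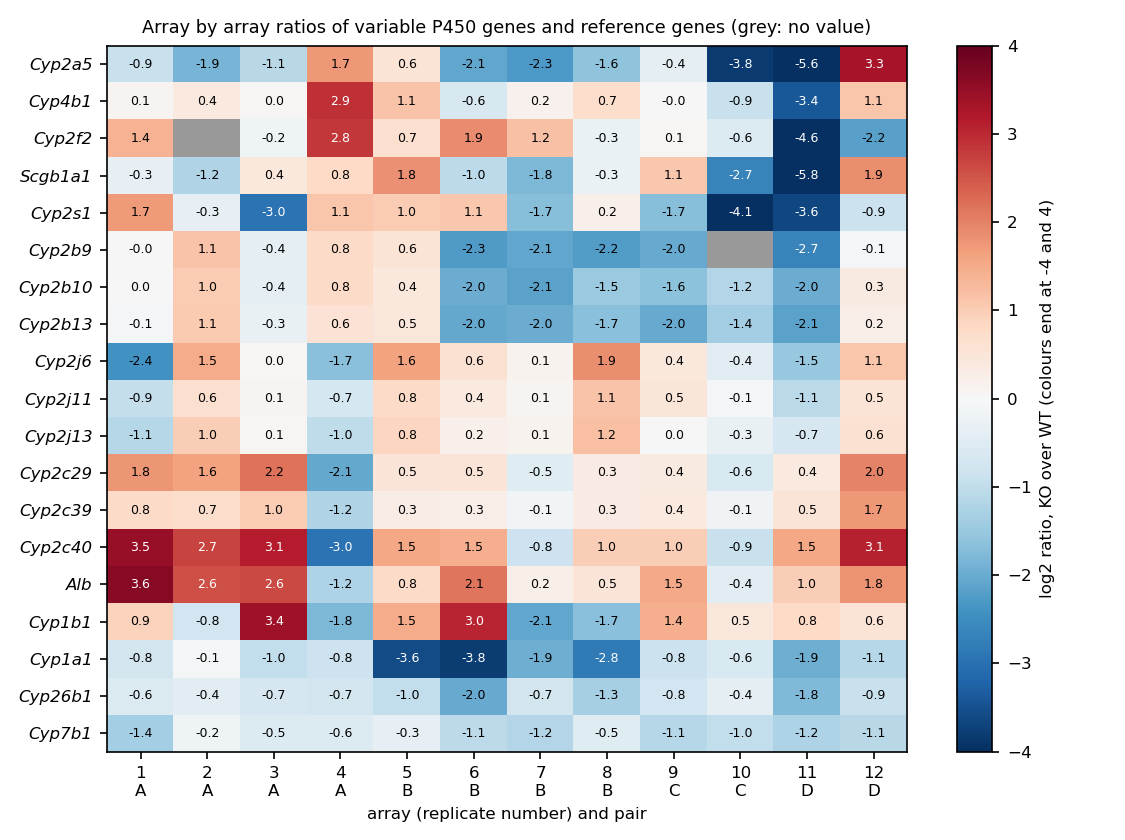
Log2 ratio of KO over WT (colour and number in each cell) on each of the 12 arrays (columns, replicate number and pair) for the P450 genes of widest scatter, relatives that moved with them, the 3 genes that fell, and the reference genes Cyp2f2, Scgb1a1 and Alb. Cyp2a5 runs from -5.6 on replicate 11 to 3.3 on replicate 12, both of pair D, whereas Cyp1a1, Cyp26b1 and Cyp7b1 are below 0 in every column.

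Cyp2a5, the mouse coumarin hydroxylase, had the widest scatter. Its ratio ran from -5.62 on replicate 11 to 3.29 on replicate 12, with a median of -1.37 and a mean of -1.20 ± 0.74 (SE, adjusted p = 0.383 in limma). On replicate 12 the WT spot was not well above background, so 3.29 is measured against a floor. Replicates 11 and 12 belong to the same pair, and yet they hold both ends of the range. The WT signal went from 6.62 to 13.35 and the KO signal from 6.95 to 10.39, and on replicate 11 it was the WT RNA that was high, at 13.35 against 7.73. Cyp4b1, which activates furans and other lung toxins, also had its lowest ratio on replicate 11, at -3.38, and its ratio had a Pearson r of 0.85 to that of Cyp2a5 over 12 arrays.

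Scgb1a1 and Scgb3a2, secretory genes of club cells, the airway cells that line small bronchi, moved with Cyp2a5 and Cyp4b1. The club cell markers Scgb3a1 and Aldh1a1 were not compared in this way. Scgb1a1, the main club cell secretory protein, had a ratio of -5.82 on replicate 11 and 1.85 on replicate 12, and a Pearson r of 0.91 to Cyp2a5 and 0.83 to Cyp4b1 over 12 arrays. Scgb3a2 had -6.43 and 4.50 on the same arrays and an r of 0.81 to Cyp2a5 and 0.71 to Cyp4b1. Of the 5 club cell markers, 0 passed the test of KO against WT, and their summed signal ran from 25500 to 173000 in KO and from 21400 to 1060000 in WT. Cyp2f2, a club cell P450 that the name rule left out, had -4.58 on replicate 11 and -2.18 on replicate 12. Its r was 0.38 to Cyp2a5 and 0.68 to Cyp4b1 over 11 arrays. The share of airway tissue in a tumour sample was not tested as a source of these values. One probe named Cyp2a4 overlaps both Cyp2a5 probes, by 38 and 20 bases on chromosome 7 of build mm7, and its ratios had an r of 1 to both, so that probe carries no separate measurement. The other Cyp2a4 probe had a mean of -0.29.

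Cyp2b9, Cyp2b10 and Cyp2b13, relatives that in mouse liver respond to phenobarbital-type inducers or to sex hormones, had probes that moved together. The ratios of the probes used had a Pearson r of 0.98 to 0.99 to one another over 11 or 12 arrays. Cyp2b10 had ratios of 0.00, 1.03, -0.36 and 0.76 in pair A and 0.41, -1.97, -2.13 and -1.49 in pair B. It had -1.64 and -1.17 in pair C and -1.97 and 0.35 in pair D. So the KO RNA was lower on all but 1 array of pair B and on both of pair C, while pair A lay on both sides of 0. The F test between pairs did not pass, with adjusted p-values of 0.517 for Cyp2b13, 0.54 for Cyp2b10 and 0.562 for Cyp2b9 in limma. A second Cyp2b13 probe, well above background in both RNAs on 12 of 12 arrays, did not follow them. It had a mean of -0.17 and lay between -0.31 and 0.70 on all arrays but replicate 11, where it was -2.88. Second probes of Cyp2b10 and Cyp2b9 had means of -0.55 and -0.33. Cyp2b19, an epidermal relative, stayed between -0.34 and 0.23.

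A second group was Cyp2c29, Cyp2c39 and Cyp2c40, which in liver oxidise fatty acids or retinoids, with an r of 0.92 to 0.98 to one another. Cyp2c40 had 3.47, 2.70, 3.13 and -2.95 in pair A, so that replicate 4 went against the 3 other arrays of its pair. It had 1.54, 1.46, -0.84 and 0.99 in pair B, 0.99 and -0.89 in pair C and 1.54 and 3.09 in pair D. A second Cyp2c40 probe had a mean of 0.80. The WT spot of that second probe was well above background on neither array of pair D. This leaves a bound for it there, at least 3.19-fold higher in KO. Alb, the serum albumin gene that defines hepatocytes, had an r of 0.92 to Cyp2c40, 0.90 to Cyp2c29 and 0.76 to Cyp2c39, and Hnf4a, a nuclear receptor of liver and gut, had 0.75, 0.72 and 0.50. Of the 4 hepatocyte markers measured out of 6, 1 rose, against 3.37% of all genes. This was Apoa1 at 1.14 ± 0.23 (SE, adjusted p = 0.0142 in limma), and its r to Cyp2c40 was 0.23. The summed signal of that list ran from 1110 to 14100 in KO and from 688 to 5560 in WT. Its part in the Cyp2c ratios was not tested.

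Another group was Cyp2j6, Cyp2j11 and Cyp2j13, from a subfamily that makes epoxides of arachidonic acid, with an r of 0.94 to 0.98. Cyp2j6 had -2.43, 1.49, 0.04 and -1.68 in pair A and 1.62, 0.60, 0.13 and 1.86 in pair B. It had 0.42 and -0.41 in pair C and -1.53 and 1.11 in pair D. Both signs thus occurred in 3 of the 4 pairs. Other probes of Cyp2j11 and Cyp2j13 had means of 0.03, 0.05 and -0.02 with standard errors of 0.03 to 0.04, against 0.21 and 0.23 for the probes used. These flatter probes were well above background in the KO RNA on 9, 10 and 8 of 12 arrays. The probes used were so on 11 arrays for Cyp2j11 and on 10 for Cyp2j13. The part of dimness in the flat ratios was not tested. Cyp2s1, an airway and skin P450 induced through the aryl hydrocarbon receptor, ran from -4.12 on replicate 10 to 1.70 on replicate 1, with an r of 0.73 to Nqo1, a quinone reductase under the same receptor and Nrf2. Its r was 0.06 to Tiparp and -0.33 to Cyp1a1, targets of that receptor too, and 0.13 to the receptor gene Ahr.

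The genes that work with P450 enzymes were read from lists. The list of electron suppliers also held the partner proteins Pgrmc1 and Pgrmc2. In it 3 of 11 genes rose and 1 fell, against 3.37% and 3.77% of all genes. Of the 3 that rose, only Fdxr is an electron supplier. Pgrmc1, a haem-binding partner of P450 enzymes, rose by 1.53 ± 0.34 on the log2 scale (SE, adjusted p = 0.0229 in limma), with ratios from -0.48 to 3.69 (median 1.52), higher on 11 of 12 arrays. Its relative Pgrmc2 rose by 0.64 ± 0.17 (adjusted p = 0.0432 in limma), with ratios from -0.24 to 2.14. Fdxr, which feeds electrons to mitochondrial P450 enzymes, rose by 0.28 ± 0.07 (adjusted p = 0.0406 in limma). Cyb5b, an outer mitochondrial cytochrome b5, had -0.45 ± 0.11 and fell (adjusted p = 0.0309 in limma), on 12 of 12 arrays. With the mean of its kept probes in place of the brightest one, Cyb5b had -0.24 and was not called (adjusted p = 0.248 in limma). Por, the reductase that serves all microsomal P450 enzymes, had -0.17 ± 0.12 (adjusted p = 0.477 in limma).

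Of 13 genes of haem synthesis and breakdown, 1 fell, against 3.77% of all genes. This was Blvrb, a biliverdin reductase, at -0.49 ± 0.13 (adjusted p = 0.0403 in limma). Alas2, the red cell form of the first enzyme of haem synthesis, had -1.02 ± 0.29 (adjusted p = 0.0532), and Hmox1, which breaks haem down, -0.45 ± 0.13 (adjusted p = 0.0629 in limma). In the aryl hydrocarbon receptor list, 1 of 8 fell, against 3.77% of all genes. This was Tiparp, a target of the receptor that restrains it, at -0.59 ± 0.12 (adjusted p = 0.0176 in limma), lower on 11 of 12 arrays. The receptor Ahr had 0.01 ± 0.16 (adjusted p = 0.982 in limma), with ratios from -0.87 to 1.01. Nqo1 had -1.09 ± 0.35 (adjusted p = 0.0871 in limma), and Gsta1 -0.56 ± 0.33 (adjusted p = 0.355 in limma). Cyp1a1 itself is the classic readout of this pathway, and its ratio had an r of 0.27 to Tiparp, -0.20 to Ahr and -0.52 to Nqo1 over 12 arrays.

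Of 20 nuclear receptors that regulate P450 genes, 2 fell, against 3.77% of all genes. These were Rxra at -0.50 ± 0.10 (adjusted p = 0.0126 in limma) and Nr5a2 at -0.19 ± 0.05 (adjusted p = 0.0395 in limma), although Nr5a2 was lower on only 7 of 12 arrays. Nr1h2, a receptor of oxysterols, had -0.18 ± 0.06 (adjusted p = 0.0878 in limma). In the steroid list, 2 of 10 rose and 1 fell, against 3.37% and 3.77% of all genes. Akr1c18, which inactivates progesterone, rose by 1.66 ± 0.41 (adjusted p = 0.0348 in limma), with ratios from -2.33 to 2.70 and a median of 2.27. Hsd11b1, which reactivates corticosterone, was at -0.79 ± 0.13 and fell (adjusted p = 0.00477 in limma), on 12 of 12 arrays; Fdxr is also in this list. In 12 genes each of retinoid and of arachidonic acid metabolism and in 19 other drug-metabolising genes, 0 passed in limma. At an unadjusted p under 0.05 in limma there were 3, 2 and 1 genes, against 11% of all genes higher and 11.4% lower.

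Most of these companion calls sat close to the threshold. When single arrays were left out, the call was lost for Nr5a2 in 10 of 12 fits, for Fdxr and Blvrb in 9, for Akr1c18 and Pgrmc2 in 8, for Cyb5b in 4 and for Pgrmc1 in 1, and for Tiparp, Rxra and Hsd11b1 in 0. The 10 genes called fell to 4 without replicate 2, 3, 7, 9 or 12, and to 1, Hsd11b1, when arrays were centred on their median in place of loess.

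Retinoid genes of small p beside Cyp26b1 were Aldh1a1, a retinal dehydrogenase, at -0.75 ± 0.25 (adjusted p = 0.0999 in limma), and the receptor gene Rarb at 0.84 ± 0.32 (adjusted p = 0.145). Among arachidonic acid genes they were the prostaglandin E synthase Ptges at -0.81 ± 0.30 (adjusted p = 0.133 in limma), Alox12 at 0.29 ± 0.13 (adjusted p = 0.198) and Ephx2 at 0.34 ± 0.22 (adjusted p = 0.411). Among drug-metabolising genes, Fmo2, the lung flavin monooxygenase, had 1.06 ± 0.35 (adjusted p = 0.0899 in limma), higher on 10 of 12 arrays, Ephx1, the microsomal epoxide hydrolase, -0.34 ± 0.16 (adjusted p = 0.241), and Aox3, an aldehyde oxidase, 0.46 ± 0.29 (adjusted p = 0.381). The P450 genes outside the name rule did not pass either. Ptgis, prostacyclin synthase of vessels, had -0.55 ± 0.17 (adjusted p = 0.0727 in limma), lower on 11 of 12 arrays, and Tbxas1, thromboxane synthase, -0.19 ± 0.18 (adjusted p = 0.594). Cyp51, of cholesterol synthesis, had 0.04 ± 0.12 (adjusted p = 0.886 in limma), and Cyp2f2 -0.08 ± 0.61 (adjusted p = 0.961).

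**Figure D5:**
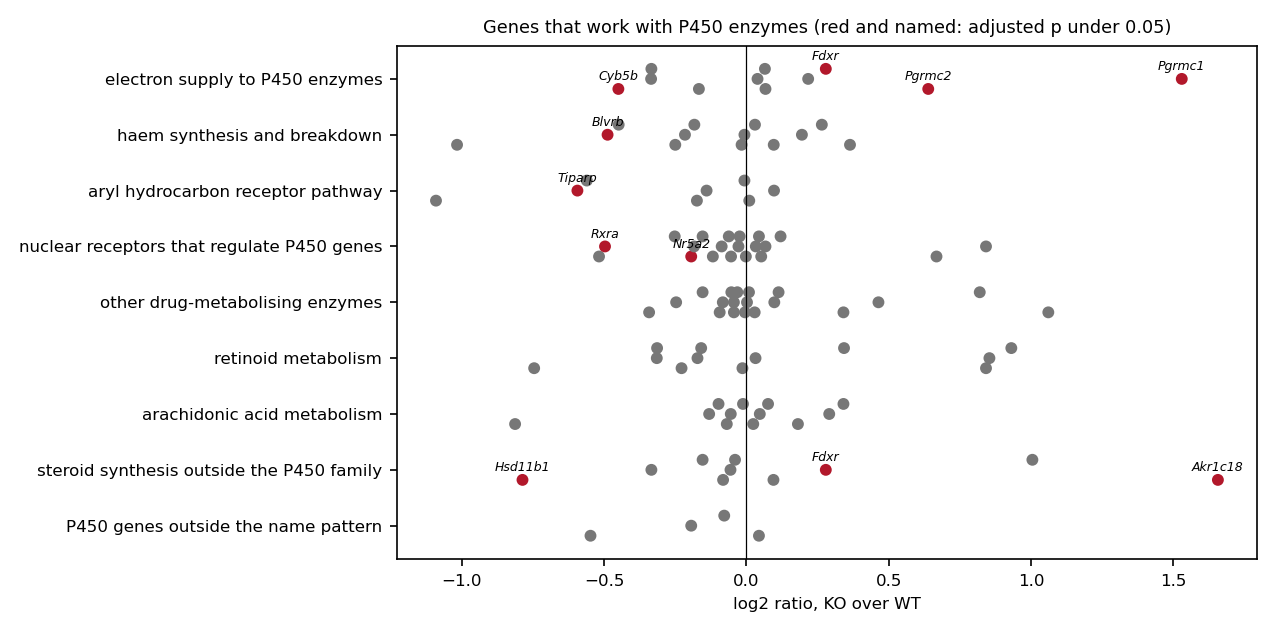
Log2 ratio of KO over WT (x axis) of genes that work with P450 enzymes, 1 point per gene, in 9 lists (y axis; height within a list only separates points). Named red points passed the test, with Pgrmc1 at 1.53 and Akr1c18 at 1.66 the furthest to the right, and Fdxr drawn in both lists that hold it.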

How the data were processed

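RNA of KO and WT lung tumours was measured on 12 two-colour Agilent whole-genome mouse arrays of 60-base probes. The authors deposited intensity values per spot, made with Feature Extraction 10.1.1.1, protocol GE2-v5_10_Apr08, array design 014868 and probe positions on build mm7, per the file headers. They also deposited a log2 ratio for each probe, for which the submitters' processing notes name limma, with a version not given in the sources used here. Turned to KO over WT, these ratios had a Pearson r of 0.9925 to 0.999 with the values computed here, with slopes of 1.005 to 1.055 and column medians of -0.0111 to 0.00784; their centring stays unknown, and they served only as an alternative.

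Ratios were computed from the mean signals with limma 3.58.1 in R 4.3.3: normexp background correction with an offset of 50, then loess within each array. Control spots and outlier spots had weight 0, and a local background that the scanner software marked as an outlier was replaced by the median of its array and dye. Ratios were turned to KO over WT, so that positive means higher in KO, and signals of the single RNAs were taken after a further Aquantile step. Probes were kept where either the KO or the WT spot was well above background on at least 6 of 12 arrays, and a gene stands for its kept probe of highest mean signal. The model held the mean ratio and the dye orientation, with the pair as a random block (statmod 1.5.0, correlation 0.0791), and p-values were adjusted by Benjamini-Hochberg over 20513 genes. A fit with 1 coefficient per pair gave the F test between pairs. The number of arrays limits the precision. The steps were tested on simulated data.

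The family, the gene lists and the tests were chosen with earlier results of these data known. Named by rule were Cyp1a1, Dnmt3a, each P450 gene that passed, the gene of smallest p in each P450 family, the 6 P450 genes of smallest p between pairs, 4 P450 genes outside the name pattern and up to 3 genes of smallest p per list. One gene that the rule names is not reported here. Other named genes, such as Pgrmc2, Por, Ahr and the members of wide scatter, were chosen after their values were seen. Of 101 P450 probes, 89 were named through a reference accession and the others by the array's own gene name. Alternatives changed the background, normalization, filter, probe rule, dye term, block and arrays used. The arrays of pairs A and B alone, and all alternatives for the companion genes, were added after seeing the data.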

Additional observations from a re-analysis of the deposited data

Results flagged for a closer look

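Alas2, the red cell form of the first enzyme of haem synthesis, was the only gene among those named by rule whose ratio differed between the 4 pairs, with an adjusted p of 0.0155 in limma's F test over all genes. Its mean log2 ratio was -2.16 in pair A and 0.18 in pair B, with -1.28 in pair C and -0.85 in pair D. The SD between arrays was 0.15 in pair A and 0.30 in pair B, so the 4 arrays of pair A lay far below the 4 of pair B. Over all arrays the ratio ran from -2.34 to 0.47 and was below 0 on 10 of 12 arrays.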

How the results depend on the processing

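Among P450 genes, 3 passed under each left-out array, the authors' ratios, median centring and most other settings, and 2 (Cyp26b1 and Cyp7b1) with local backgrounds as deposited, with probes well above background for both RNAs on all 12 arrays, without pair D and in pairs A and B alone. With each pair's mean as 1 value 0 genes and 0 probes passed (3 probes otherwise), and within slides 1, 2 and 3 alone 0 genes passed, where 0, 1 and 0 of all genes did. Cyp1a1 ran from -1.73 to -1.41 without single arrays and was not called at -1.38 (backgrounds as deposited), -1.50 (pair means), -1.65 (without pair D), -0.66, -3.04 and -1.14 (within slides 1, 2 and 3) and -1.85 (pairs A and B alone). Companion genes called were 10, 4 to 12 without single arrays, 1 with median centring and with pair means, 4, 4, 3 and 5 without pairs A, B, C and D, 0 within slides 1, 2 and 3, and 4 in pairs A and B alone. P450 genes that differed between pairs were 0 to 1 without single arrays. Over all genes 1466 were called, 692 higher and 774 lower, but 765 and 514 with backgrounds as deposited. The count was 359 with median centring, 2213 with arrays taken as independent, 48 with pair means, 772 without replicate 3, 922 without 7, 796 without 12, 400, 915, 837 and 970 without pairs A to D, and 867 in pairs A and B alone. The cause of these changes was not tested, except that slides and pair means leave 4 values to a fit. Each ratio already pairs a KO and a WT RNA on 1 array.

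Signs turned only in genes that had not passed. With processed signals these were Cyp8b1 (0.057) and Cyp11b2 (-0.008), with backgrounds as deposited Cyp27b1 (0.027) and Cyp20a1 (0.01), and with pair means Cyp20a1 (0.003). With median centring they were Cyp46a1 (0.001), Cyp27b1 (0.014), Cyp17a1 (0.017) and Cyp11b2 (-0.048). Without single arrays the range crossed 0 for Cyp20a1 (-0.122 to 0.015), Cyp51 (-0.022 to 0.118), Cyp11b2 (-0.012 to 0.028), Cyp3a13 (-0.221 to 0.035) and Cyp2f2 (-0.501 to 0.444). They were Cyp20a1 (0.076) without pair A, Cyp51 (-0.12) without B, Cyp27b1 (0.019), Cyp3a13 (0.173) and Cyp2f2 (0.079) without C, and Cyp2f2 (0.946) without D. Within slide 1 they were Cyp2d9 (0.001), Cyp11b2 (-0.018), Cyp4f14 (0.102), Cyp3a13 (0.299), Cyp2f2 (1.721) and Cyp51 (-0.174). Within slide 2 they were Cyp8b1 (0.019), Cyp3a16 (0.029), Cyp27b1 (0.146), Cyp20a1 (0.032), Cyp3a13 (0.239), Cyp4f18 (0.351), Cyp2f2 (0.86), Ptges (0.035) and Alas2 (0.18). Within slide 3 they were Cyp24a1 (0.03), Cyp20a1 (0.146), Cyp51 (-0.068), Ephx2 (-0.214) and Aox3 (-0.224). In pairs A and B alone they were Cyp27b1 (0.041), Cyp11b2 (-0.003), Cyp4f14 (0.021), Cyp3a13 (0.269) and Cyp2f2 (1.121).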
